A study of Mus musculus with 10 samples.

Results

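Complement genes transcribed in the colon were examined in mice with colitis caused by dextran sulfate sodium (DSS), a polymer that injures the epithelium of the colon when it is given in drinking water. The 9 genes were taken by symbol from the 56691 genes of the expression table: the components *C3*, *C4b*, *C1s1*, *C1ra*, *Cfb* and *Cfd*, the regulator *Cd55*, and the receptors *C3ar1* and *C5ar1*. All 9 were among the 16545 genes with enough reads to be tested. Poly(A) RNA of the colon from 5 animals given DSS alone (the DSS group, DSS-1 to DSS-5) was compared with that of 5 mice of the ceAF group (ceAF-1 to ceAF-5), ceAF being amniotic fluid of early chick embryos. Animals of both groups were male C57/BL6 mice obtained at 8 weeks of age, and both groups drank 3% DSS for 7 days. The ceAF group was then gavaged with 15 mL/kg ceAF for 10 days. Whether the DSS group received a vehicle over that time is not given in the sources used here, and mice without DSS were not analysed here. The comparison is thus of DSS followed by ceAF with DSS alone.

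Complement is a cascade of plasma and tissue proteins in which the proteases C1r and C1s of the classical route cleave C4 and C2, and factors B and D of the alternative route amplify the cleavage of the central component C3. The fragments C3a and C5a act through receptors on myeloid cells, while membrane regulators such as CD55 dismantle the enzymes that cleave C3 on the body's own cells. Most of the plasma pool comes from the liver, but epithelium, fibroblasts and macrophages of the intestine also transcribe these genes, and C3 made in the gut coats bacteria of the lumen.

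The libraries held 14676471 to 19901549 reads on genes, and their mitochondrially encoded share was 5.06% to 6.54% in the DSS group and 9.66%, 5.64%, 4.53%, 7.24% and 9.74% in ceAF-1 to ceAF-5. ceAF-1, ceAF-4 and ceAF-5 were thus above all DSS mice, and the part of this share in the results was not tested. No library was a copy of another, since any 2 of the 10 libraries, within a group or across, had a chi-square per gene of 14.7 to 181, far from the value near 1 of repeated counts. The tissue carried the epithelial transcript *Epcam* at a mean of 949 FPKM (fragments per kilobase of exon, scaled to the library's total), and of the hepatocyte transcripts *Alb* had at most 15 reads in any mouse, *Apoa1* 108 and *Ttr* 374. A single mouse of each group stood apart in the complement genes. DSS-1 had the highest level of 5 of the 9 genes, and ceAF-1 had the lowest level of 6 of the 9 and the highest level of *Cfd*. The summed level of the 9 genes was 131, 67.5, 84.7, 61.5 and 74.6 FPKM in DSS-1 to DSS-5, and 34.7, 80.9, 76.3, 53.2 and 71.8 FPKM in ceAF-1 to ceAF-5. Without DSS-1 and ceAF-1 these sums of the remaining mice overlapped, from 61.5 to 84.7 FPKM after DSS alone and from 53.2 to 80.9 FPKM after ceAF.

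Levels between genes were compared per length of transcript, as the mean FPKM over the 10 mice. *C3* (16.8), *Cd55* (16.1) and *C1s1* (15.5) were the most abundant of the 9, followed by *C1ra* (7.10), *Cfb* (6.66) and *C4b* (6.34). Both receptors and *Cfd* were lower, with 2.62 for *C5ar1*, 1.36 for *Cfd* and 1.1 for *C3ar1*. The place of *C5ar1* came from DSS-1 (15.6 FPKM), and over the other 9 mice its mean was 1.17 FPKM, below that of *Cfd* (1.5). Within each of these sets the neighbouring genes differed by less than the spread between mice. In the DSS group, for example, levels were 21.5 ± 12 FPKM for *C3*, 17.8 ± 4.36 for *C1s1* and 17.0 ± 6.41 for *Cd55* (SD, n = 5), whereas *C1ra* stood at 7.54 ± 1.53 FPKM, below *C1s1* in each of the 10 mice.

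Mean levels of 7 of the 9 genes were lower after ceAF than after DSS alone, and those of *Cfb* and *Cfd* were higher. Levels of the groups overlapped between mice for all 9. None lay below the DSS range in every ceAF mouse, where 0.465% of all tested genes did, and none lay above it, where 0.774% did. Differences given below are log2 fold changes of ceAF against DSS from edgeR's quasi-likelihood test with their standard error (SE), and levels of a gene in single mice are in CPM (counts scaled to a common library total) after TMM scaling of the libraries.

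*C3*, the component on which all routes of the cascade converge, reached 192, 57.3, 117, 48.4 and 127 CPM in DSS-1 to DSS-5, and 22.7, 73.4, 80.0, 33.5 and 98.2 CPM in ceAF-1 to ceAF-5. Every ceAF mouse was below the median DSS mouse, DSS-3, yet 3 of the 5 lay above DSS-2 and DSS-4, so the groups overlapped. The mean was 109 ± 58.5 CPM after DSS and 61.6 ± 32.1 CPM after ceAF (SD, n = 5). The log2 fold change was −0.82 ± 0.46 (SE), with a 95% interval from −1.71 to 0.08, an unadjusted p of 0.101 and an adjusted p of 0.756. A two-sided exact permutation test over the mice gave p = 0.175. With DSS-1 left out, the value for *C3* was −0.51, and without DSS-4 it was −1.0 with an unadjusted p of 0.0486. In bulk tissue, fewer cells that transcribe a gene and less RNA per cell cannot be told apart.

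*C4b*, which encodes the C4 protein cleaved by C1s, ranged from 24.4 to 46.8 CPM in the DSS group and from 18.0 to 50.5 CPM in the ceAF group. The ceAF group held both the lowest mouse, ceAF-4, and the highest, ceAF-2. Its log2 fold change of −0.19 ± 0.28 (SE) was smaller than the SE, with an adjusted p of 0.931, and it was −0.37 without ceAF-2 and −0.03 without ceAF-4. Of the 50-base stretches of *C4b* transcripts, 34.6% also occur in its near copy *C4a*, to which between 11 and 45 reads per mouse were assigned against 302 to 846 for *C4b*, so the division of reads between these genes is uncertain.

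The proteases of the C1 complex were represented by *C1s1* and *C1ra*. *C1s1*, for the protease that cleaves C4 and C2, was at 70.0, 56.9, 55.1, 60.0 and 34.0 CPM in DSS-1 to DSS-5, and at 17.9, 53.5, 48.3, 40.0 and 47.9 CPM in ceAF-1 to ceAF-5. Of the DSS mice, 4 exceeded every ceAF mouse, and DSS-5 was below all of them but ceAF-1. edgeR gave *C1s1* a log2 fold change of −0.41 ± 0.27 (SE), with an adjusted p of 0.799 and an exact permutation p of 0.190. Without ceAF-1 it was −0.22, and without DSS-5 it was −0.53.

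*C1ra*, for the protease that activates C1s, was at 27.1, 21, 25.6, 20.4 and 17.2 CPM in DSS-1 to DSS-5, and at 5.57, 27.7, 26.5, 11.9 and 27.0 CPM in ceAF-1 to ceAF-5. The ceAF mice were split, with ceAF-1 and ceAF-4 below the whole DSS group and the other 3 at its upper end. Its log2 fold change was −0.17 ± 0.37 (SE), and it changed sign to 0.07 when ceAF-1 was left out. Near copies of both genes had few reads, 0 to 6 per mouse for *C1s2* and 0 to 2 for *C1rb*. They share 21.8% and 48.0% of the 50-base stretches of *C1s1* and *C1ra*, which makes the counts of these genes uncertain to that extent.

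*Cfb* encodes factor B, which carries the catalytic site of the alternative C3 convertase, and was at 13, 18.1, 16.6, 16.9 and 24.1 CPM in DSS-1 to DSS-5, and at 18.8, 29.7, 34.5, 7.46 and 10.9 CPM in ceAF-1 to ceAF-5. The ceAF group was the wider of the groups, with ceAF-2 and ceAF-3 above and ceAF-4 and ceAF-5 below all DSS mice. DSS-1, highest for *C3*, was the lowest DSS mouse for *Cfb*. For *Cfb* the log2 fold change was 0.19 ± 0.37 (SE), with an adjusted p of 0.954, and it became −0.09 without ceAF-3.

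*Cfd* encodes factor D, or adipsin, the protease that cleaves factor B and that fat cells secrete. Its reads numbered 1, 26, 40, 10 and 20 in DSS-1 to DSS-5, and 61, 12, 0, 4 and 29 in ceAF-1 to ceAF-5, so counting error was largest for this gene. ceAF-1 had the highest and ceAF-3 the lowest value of the 10 mice, which put both ends of the range in the ceAF group. The log2 fold change was 0.34 ± 0.98 (SE), with an adjusted p of 0.973, and it was −0.77 without ceAF-1. The mean difference of log2 CPM was −0.31, of the opposite sign to the fitted value, with an exact permutation p of 0.817.

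Markers of fat cells were examined beside *Cfd*. Reads of *Adipoq*, the adipocyte hormone adiponectin, numbered 0, 6, 8, 4 and 2 in DSS-1 to DSS-5, and 22, 5, 0, 0 and 5 in ceAF-1 to ceAF-5. The mouse with most *Cfd* thus had most *Adipoq*, and the mouse without a *Cfd* read had none of *Adipoq*, as did DSS-1 and ceAF-4. Of 12 adipocyte markers, *Adipoq*, *Plin1*, *Cidea*, *Lep*, *Retn* and *Adig* were too low to be tested, and the remaining 6 had a median log2 fold change of −0.12, which was −0.30 without ceAF-1, 0.0072 without ceAF-4 and −0.30 by voom. The list summed to 64.3, 64.2, 68.0, 60.9 and 49.7 FPKM in DSS-1 to DSS-5, and to 83.4, 52.9, 59.9, 56.8 and 50.9 FPKM in ceAF-1 to ceAF-5, most of it from *Pnpla2* (mean 45.1 FPKM), a lipase of many tissues. The part of fat cells in the *Cfd* values was not tested.

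*Cd55*, whose membrane protein speeds the decay of the C3 convertases, was at 133, 71.9, 63.9, 76.8 and 62.8 CPM in DSS-1 to DSS-5, and at 49.4, 91.7, 76.3, 96.2 and 56.3 CPM in ceAF-1 to ceAF-5. DSS-1 was the highest of the 10 mice, and the other 4 DSS mice lay within the range of the ceAF group. Fitted over all mice, its log2 fold change was −0.14 ± 0.25 (SE), with an adjusted p of 0.946 and an exact permutation p of 0.651. It became 0.11 without DSS-1. The copy *Cd55b* shares 8.0% of the 50-base stretches and had 0 to 9 reads per mouse.

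Among the receptors, *C3ar1*, for the receptor of the fragment C3a on myeloid cells, was at 7.07, 4.05, 6.71, 5.0 and 3.96 CPM in DSS-1 to DSS-5, and at 1.60, 4.88, 6.80, 3.94 and 3.08 CPM in ceAF-1 to ceAF-5. ceAF-3 lay between the upper DSS mice, DSS-1 and DSS-3, and ceAF-1 was lowest. For *C3ar1* the log2 fold change was −0.39 ± 0.34 (SE), with an adjusted p of 0.864 and an exact permutation p of 0.214, and it was −0.20 without ceAF-1 and −0.65 without ceAF-3.

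*C5ar1* encodes the receptor of the fragment C5a, which draws neutrophils into inflamed tissue. It was at 38.7, 3.0, 5.57, 3.14 and 3.30 CPM in DSS-1 to DSS-5, and at 0.61, 2.60, 3.02, 2.45 and 3.24 CPM in ceAF-1 to ceAF-5. A single mouse, DSS-1, was far above all others, and the ranges of the remaining DSS mice and of the ceAF mice met near 3 CPM, with ceAF-3 and ceAF-5 above DSS-2. The mean was 10.7 ± 15.6 CPM after DSS and 2.38 ± 1.04 CPM after ceAF (SD, n = 5).

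The log2 fold change of *C5ar1*, −2.16 ± 0.79 (SE), was the largest in size of the 9 genes, with an unadjusted p of 0.0199 and an adjusted p of 0.656. All 5 ceAF mice were below the median DSS mouse, DSS-5, and an exact permutation test gave p = 0.0397. With DSS-1 left out, *C5ar1* had a log2 fold change of −0.64 with an unadjusted p of 0.145, and without both DSS-1 and ceAF-1 it was −0.41 with an unadjusted p of 0.147. DESeq2 gave a log2 fold change of −2.17 and returned no p for this gene. The related receptor *C5ar2*, which shares none of these 50-base stretches, had 6 to 43 reads per mouse, most in DSS-1, and a log2 fold change of −0.82 ± 0.49 (SE) that was −0.38 without DSS-1.

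**Figure D1:**
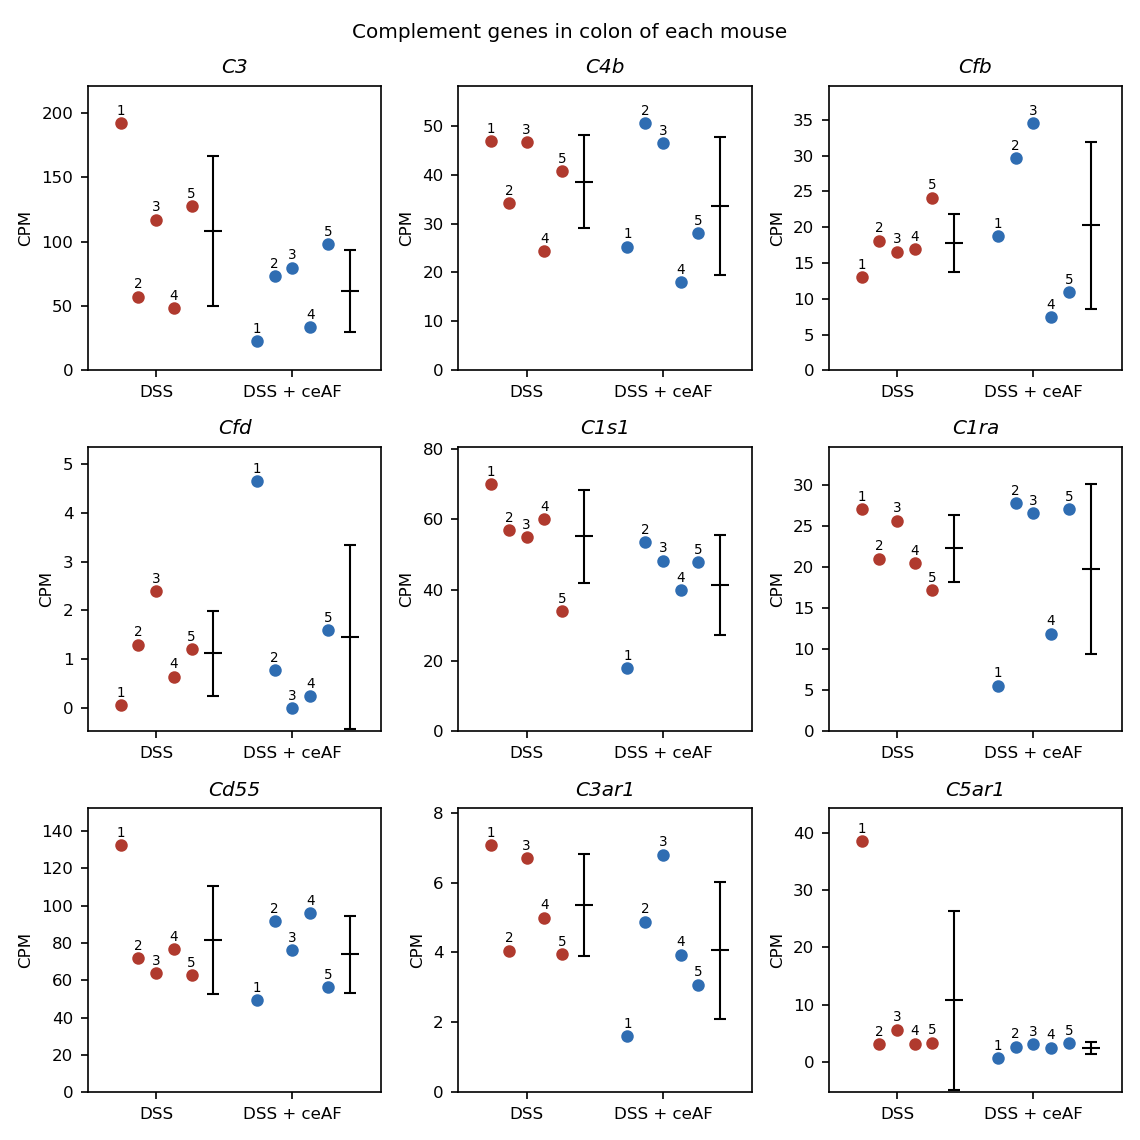
Level of each of the 9 complement genes in colon, in CPM (scaled counts, vertical axis, linear), for the 5 DSS mice (red) and the 5 mice given DSS and then ceAF (blue), each point numbered by mouse, with the mean and SD of the group (n = 5) as a black bar. DSS-1 stands alone for *C5ar1* (38.7 CPM) and is highest for *C3* (192 CPM), and ceAF-1 is lowest for 6 genes and highest for *Cfd* (4.65 CPM).

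By edgeR, 0 of the 9 genes passed an adjusted p of 0.05, as did 0% of all genes tested, whose smallest adjusted p was 0.656. At an unadjusted p under 0.05, 1 of the 9 was lower after ceAF (*C5ar1*), where 3.67% of all genes were, and 0 were higher, where 3.26% were. DESeq2 called 0 of the 8 genes it gave a p, against 0.179% of all genes, and voom called 0 of 9, against 0% of all genes. At an unadjusted p, both of these tools also called 0. In either direction, voom called 2452 of 16545 genes and DESeq2 called 1568. Those 1568 are among all genes to which DESeq2 gave an unadjusted p, at most the 32504 with a read. With *C5ar1* resting on DSS-1, the count at an unadjusted p was 0 without that mouse, where 712 of 16713 genes passed in either direction. It was 2 (*C3* and *C5ar1*) without DSS-4, where 953 of 16783 genes did. In the edgeR fit of all mice, the median log2 fold change of the 9 genes was −0.19, beside 0.01 over all genes tested. Its size was less than the within-group SD of 0.52 of the genes' median log2 level between mice. Several of the 9 genes shrank, grew or changed sign under other fits, as given in the last section.

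Markers of leukocytes and stroma, the cells known to transcribe several of these genes, were set beside them. Over all genes tested, 3.67% were lower at an unadjusted p under 0.05 and the median log2 fold change was 0.01. In either direction 712 of 16713 genes passed without DSS-1, 1872 of 16784 without ceAF-1 and 1449 of 16546 without both. By voom 2452 of 16545 passed, and by limma-trend 1009 and 990 with the 2 pseudocounts. Of 11 macrophage markers, 10 were lower after ceAF and 2 passed an unadjusted p of 0.05, with a median log2 fold change of −0.48. Their summed level was 256, 124, 142, 118 and 117 FPKM in DSS-1 to DSS-5, and 61.3, 109, 123, 105 and 151 FPKM in ceAF-1 to ceAF-5, with *Lyz2* the most abundant (mean 80.7 FPKM). DSS-1 was again the highest and ceAF-1 the lowest mouse. The lowest place of ceAF-1 in this sum came from *Lyz2*, at 191 FPKM in DSS-1 and 16.3 FPKM in ceAF-1. Without *Lyz2* the sum was still highest in DSS-1 (64.31 FPKM), but DSS-5, ceAF-2 and ceAF-5 were lower than ceAF-1. In the mean of the markers' centred log2 CPM, DSS-1 was highest and ceAF-1 lowest (0.69 and −0.84, with ceAF-4 next lowest at −0.27). Over all 11 markers the median log2 fold change was −0.30 without DSS-1 and −0.60 without ceAF-3. Without both DSS-1 and ceAF-1 it was −0.07, with 8 of 11 lower (for all lists, such fits were chosen after the data had been seen).

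Neutrophil markers had DSS-1 and ceAF-1 at the ends. All 10 were lower after ceAF, 8 of them at an unadjusted p under 0.05 and none at an adjusted p, with a median log2 fold change of −3.94. Without DSS-1 all 10 were still lower, but 2 at an unadjusted p under 0.05, and the median was −1.28. By voom 0 passed that threshold (median −1.27), and by limma-trend on FPKM 1 or 3 did, depending on the pseudocount (medians −1.27 and −1.99). They summed to 2894, 136, 425, 210 and 623 FPKM in DSS-1 to DSS-5, and to 20.1, 264, 190, 163 and 247 FPKM in ceAF-1 to ceAF-5. *Ly6g* was the most abundant (mean 198 FPKM), and no marker of the list was at 0 throughout. It made up most of these sums except in DSS-1 and DSS-3, was highest in DSS-5, and had a log2 fold change of −0.67 ± 0.58 (SE), far from the median of the list. Without *Ly6g* the other 9 markers summed to 2642, 19.3, 285, 23.4 and 104 FPKM in DSS-1 to DSS-5, and to 1.71, 15.9, 13.4, 61.3 and 28.0 FPKM in ceAF-1 to ceAF-5. The mice at the ends, DSS-1 and ceAF-1, were those with the highest and lowest *C5ar1*.

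Fibroblast markers numbered 12, all lower after ceAF and 1 at an unadjusted p under 0.05, with a median log2 fold change of −0.22. Without DSS-1, 6 of the 12 were lower (median −0.02), and without ceAF-1, 7 (median −0.03). Without ceAF-4 all 12 were lower, 2 at that threshold (median −0.36), where 943 of 16767 genes passed in either direction. By voom 5 were lower (median 0.03), and DESeq2 called 1 at an adjusted p. Their sum was 221, 112, 113, 102 and 112 FPKM in DSS-1 to DSS-5, and 41.1, 129, 116, 153 and 104 FPKM in ceAF-1 to ceAF-5, with *Col3a1* the most abundant (mean 23.3 FPKM). DSS-1 and ceAF-1 thus also held the ends of stromal transcripts. The epithelial sum was highest in ceAF-1 (14913 FPKM), of which *Car1* made 8530, and without *Car1* only DSS-5 was lower than ceAF-1 (5792 and 6383 FPKM). Whether the levels of *C3*, *C1s1*, *C1ra*, *C3ar1* and *C5ar1* in these mice follow the amount of such cells in the piece of colon was not tested.

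The remaining lists were described by counts. Of 10 T cell markers all were lower after ceAF, 8 at an unadjusted p under 0.05, a median log2 fold change of −1.18 and *Trbc2* as the most abundant. All 10 B cell and plasma cell markers were lower, none at that threshold (median −0.49, *Jchain* most abundant), as were all 8 endothelial markers (median −0.38, *Pecam1*) and all 8 smooth muscle markers (median −0.11, *Actg2*). Without DSS-1 the T cell list had 9 lower, 6 at that threshold (median −1.0), but the B cell and plasma cell list 3 lower (median 0.26), the endothelial list 7 (median −0.16) and the smooth muscle list 5 (median −0.04). Without ceAF-1 these 4 medians were −1.04, −0.24, −0.17 and 0.04, and by voom −1.01, −0.12, −0.27 and 0.09. Other omissions lowered them. The endothelial median was −0.64 without ceAF-4, with 4 of 8 lower at that threshold, where 943 of 16767 genes passed in either direction. The B cell and plasma cell median was −0.99 without ceAF-5, and the smooth muscle median −0.41 without ceAF-2. Of 12 epithelial markers, 7 were lower and 5 higher (median −0.02, *Car1*), with 1 lower at an unadjusted p under 0.05, and leaving out 1 mouse moved that median from −0.08 (without DSS-5) to 0.09 (without ceAF-5). Few mesothelial, glial and hepatocyte markers were tested. *Upk3b*, *Lrrn4*, *Wt1* and *Bnc1* of the mesothelial list were too low, and the 3 tested had a median of −0.30 with *Krt7* the most abundant, which became −0.13 without DSS-1 and 0.15 by voom. Of the 5 glial markers *Foxd3* was too low, and the 4 tested had a median of −0.44 with *Gfap* the most abundant. Without ceAF-1 this was −0.67 and by voom −0.62, each with 2 of the 4 lower at an unadjusted p under 0.05. In either direction 1872 of 16784 genes passed that threshold without ceAF-1, and 2452 of 16545 by voom. Of the 6 hepatocyte markers *Alb*, *Apoa1*, *Serpina1a*, *Fgb* and *Ahsg* were too low, which left *Ttr* (mean 8.75 FPKM) with a log2 fold change of 0.82, or 1.09 at an unadjusted p under 0.05 without DSS-1 and ceAF-1.

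**Figure D2:**
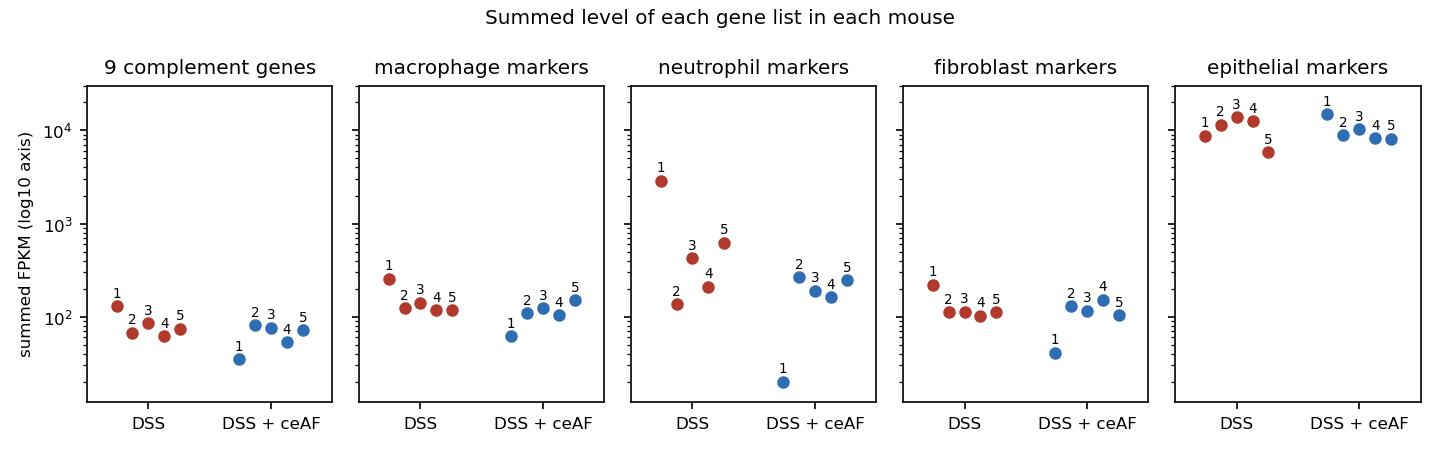
Summed level in FPKM (vertical axis, log10 scale) of the 9 complement genes and of the macrophage, neutrophil, fibroblast and epithelial marker lists in each mouse of the DSS group (red) and of the ceAF group (blue), each point numbered by mouse. DSS-1 has the highest sum of the 9 complement genes (131) and of neutrophil markers (2894), and ceAF-1 the lowest of both (34.7 and 20.1), whereas its epithelial sum is the highest (14913) through *Car1* (8530).

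Beyond the 9 genes, 49 other complement genes were in the table and 26 were tested, of which 18 were lower and 8 higher after ceAF, with a median log2 fold change of −0.28. That median was −0.11 without DSS-1, −0.10 without ceAF-1 and −0.20 by voom, but −0.39 without ceAF-5. Of all 16545 genes tested, 8034 were lower. By edgeR 0 of the 26 passed an adjusted p of 0.05, and at an unadjusted p under 0.05, 5 were lower by edgeR, where 3.67% of all genes were, and 0 were higher, where 3.26% were. DESeq2 gave 42 of these genes a p and called 5 lower at an unadjusted p. Over all genes it called 1568 in either direction, out of at most the 32504 with a read. The 5 by edgeR were *C1qa*, *Colec12*, *Cd59a*, *Itgam* and *Itgb2*. In fits chosen after the data had been seen, that count was 0 without DSS-1, 3 without DSS-2 and 3 without DSS-3. It was 1 without ceAF-1, 2 without ceAF-3, 1 without ceAF-4, 2 without ceAF-5 and 0 without DSS-1 and ceAF-1 together. By voom, with upper quartile normalization, with robust dispersion and by limma-trend it was 3. Voom, and the fit without DSS-1 and ceAF-1, also called 1 higher. Over all genes, in either direction, 712 of 16713 passed without DSS-1, 1872 of 16784 without ceAF-1, 1449 of 16546 without both and 2452 of 16545 by voom. In the other fits just listed 943 to 1126 genes passed.

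Among the initiators of the classical and lectin routes, 8 of 9 tested genes were lower. *C1qa*, a chain of the recognition molecule C1q that macrophages make, was the most abundant (mean 27.6 FPKM), at 43.3, 31.4, 37.4, 39.5 and 21.8 CPM in DSS-1 to DSS-5, and at 10.2, 26.8, 31.7, 17.8 and 25.8 CPM in ceAF-1 to ceAF-5. DSS-5 aside, every DSS mouse was above at least 4 of the 5 ceAF mice, and ceAF-1 was the lowest, as for *C1s1* and *C1ra*. The log2 fold change was −0.62 ± 0.28 (SE) for *C1qa* (unadjusted p 0.0492), −0.47 ± 0.26 for *C1qb* and −0.56 ± 0.29 for *C1qc*. Without ceAF-1 these became −0.44, −0.28 and −0.36. The scavenger receptor collectin *Colec12* had −0.92 ± 0.39, was highest in DSS-1 and had −0.47 without that mouse. No read of *Mbl1* or *Mbl2*, the mannose-binding lectins made in liver, was counted in any mouse.

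Of the alternative route, *Cfp*, for the stabilizer properdin, was the most abundant besides *Cfb* (mean 5.18 FPKM), with a log2 fold change of −0.49 ± 0.39 (SE) that was −0.0031 without DSS-1. Terminal components were scarce, with *C8g* (mean 1.43 FPKM) the only 1 of 7 tested, at a log2 fold change of 0.05 ± 0.20 that was −0.04 without DSS-4. *C8a* and *C8b* had no reads, and *Hc*, which encodes C5, the source of the ligand of *C5ar1*, was too low to be tested (mean 0.078 FPKM).

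Regulators other than *Cd55* were divided, with 4 of 8 tested genes lower and 4 higher. *Cr1l*, which encodes Crry, the rodent membrane regulator of C3 convertases, was at 79.4, 80.2, 85.4, 89.1 and 86.5 CPM in DSS-1 to DSS-5, and at 89.7, 89.2, 97.4, 99.8 and 91.0 CPM in ceAF-1 to ceAF-5. On this scale every ceAF mouse was above every DSS mouse, as was so for 0.774% of all tested genes, although ceAF-2 and DSS-4 nearly met, and this gene was singled out after its values had been seen. In FPKM, which lacks that scaling of the libraries, the groups overlapped, with ceAF-1 at 7.74 and DSS-5 at 8.48. For *Cr1l* the log2 fold change was 0.15 ± 0.08 (SE), with an unadjusted p of 0.0762 and an adjusted p of 0.739. *Serping1*, for the inhibitor of C1r and C1s, was the most abundant regulator of the list (mean 18.8 FPKM), at a log2 fold change of −0.41 ± 0.22 that was −0.27 without ceAF-1, and *Cd59a*, for an inhibitor of the membrane attack complex, had −0.56 ± 0.25.

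Of the other receptors, 5 of 6 tested were lower after ceAF. *Itgb2* and *Itgam* encode the chains of complement receptor 3, the integrin by which neutrophils and macrophages bind C3 fragments. *Itgb2* was at 49.2, 22.4, 25.7, 24.5 and 12.7 CPM in DSS-1 to DSS-5, and at 6.41, 17.2, 18.6, 9.13 and 14.1 CPM in ceAF-1 to ceAF-5. All DSS mice but DSS-5 were above all ceAF mice. Its log2 fold change was −1.04 ± 0.37 (SE) with an unadjusted p of 0.0167, and −0.70 with an unadjusted p of 0.0519 without DSS-1. *Itgam* resembled *C5ar1*, with 44.1 CPM in DSS-1 and 4.35 to 9.76 CPM in the other mice, and its log2 fold change of −1.30 ± 0.58 became −0.24 without DSS-1. *C1qbp*, a mitochondrial protein that also binds C1q, was the most abundant of the list (mean 17.7 FPKM), at 0.21 ± 0.15, or 0.10 without ceAF-5.

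A list of 19 genes induced by cytokines, which also induce *C3* and *Cfb*, was described beside them. Of the 18 tested, 16 were lower after ceAF, 4 of them at an unadjusted p under 0.05 and none at an adjusted p, with a median log2 fold change of −0.47. Without DSS-1, 2 were at an unadjusted p under 0.05 (median −0.38), and without DSS-1 and ceAF-1, 3 were (median −0.27). Without ceAF-3 all 18 were lower, 4 at that threshold (median −0.72). Over all genes, 3.67% were lower at that threshold with all mice. In either direction 712 of 16713 passed without DSS-1, 1449 of 16546 without DSS-1 and ceAF-1, and 1111 of 16784 without ceAF-3. *Irf1* was the most abundant (mean 72.9 FPKM, log2 fold change −0.06 ± 0.18 SE), and *Il6* was too low to be tested. The list summed to 1055, 408, 505, 475 and 399 FPKM in DSS-1 to DSS-5, and to 343, 464, 520, 257 and 249 FPKM in ceAF-1 to ceAF-5. DSS-1 was again the highest mouse, while ceAF-4 and ceAF-5, the lowest for *Cfb*, were lowest.

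Relations among the 9 genes were computed on log2 CPM over the 10 mice for 36 pairs, with permutation p-values adjusted over the pairs. Pearson's r was positive in 25 of them. At an adjusted p under 0.05 there were 0 pairs by r, 1 by Spearman's rho, 0 by r without the 2 mice farthest from the median of the first gene, and 3 by r after centring each group.

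*C3* and *C5ar1*, which encodes the receptor of the C5 fragment C5a, were the pair that passed by rank. Their r was 0.82 (permutation p = 0.00183, adjusted 0.0638) and their rho 0.90 (permutation p = 0.00076, adjusted 0.0274). Without DSS-1 and ceAF-1, r was 0.64 (permutation p = 0.0800, adjusted 0.288), so at an unadjusted p of 0.05 it no longer passed. Within groups, after centring, r was 0.76 (adjusted permutation p = 0.0314).

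The proteases *C1s1* and *C1ra* had the highest r of the 36 pairs, 0.89 (permutation p = 0.00582, adjusted 0.0638), with a rho of 0.55 (permutation p = 0.105, adjusted 0.289). It was 0.55 without DSS-5 and ceAF-1 (permutation p = 0.178, adjusted 0.458), and within groups, after centring, it was 0.89 (adjusted permutation p = 0.0314). The third pair that passed after centring was *C1ra* with *C5ar1* (r 0.62, adjusted permutation p = 0.0314), whose r was 0.65 before centring (adjusted permutation p = 0.159), with a rho of 0.43 (adjusted permutation p = 0.464), and 0.30 without ceAF-1 and ceAF-4 (adjusted permutation p = 0.650). *C1s1* and *C3ar1* had the next highest r, 0.84 (permutation p = 0.00709, adjusted 0.0638), with a rho of 0.77 (permutation p = 0.0133, adjusted 0.120), and r was 0.51 without DSS-5 and ceAF-1 (adjusted permutation p = 0.479). *Cfd* and *Cd55* ran opposite to each other, with r −0.74 (permutation p = 0.0138, adjusted 0.0809) and rho −0.81 (permutation p = 0.00674, adjusted 0.120). That relation was not weaker without DSS-1 and ceAF-3 (r −0.89, adjusted permutation p = 0.0527). *Cfb* had the r nearest to 0 with *C3* over the 10 mice, 0.14 (permutation p = 0.698, adjusted 0.739), and rho −0.02 (permutation p = 0.973, adjusted 0.973). Without DSS-1 and ceAF-1 that place was not kept, with r 0.46 for *Cfb* (adjusted permutation p = 0.479), 0.15 for *C3ar1* and −0.19 for *C1s1*.

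**Figure D3:**
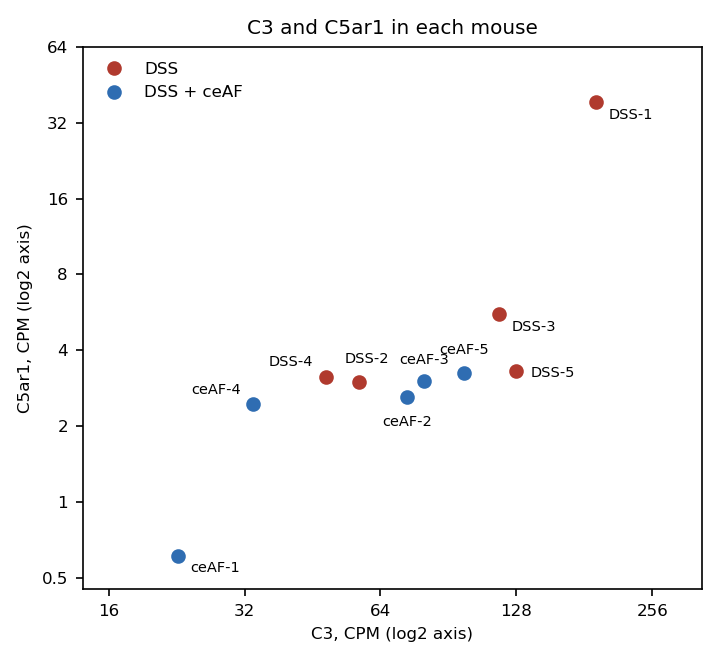
Level of *C5ar1* (vertical axis) against *C3* (horizontal axis) in CPM, both on log2 axes, in each of the 5 DSS mice (red) and the 5 ceAF mice (blue). DSS-1 (192 and 38.7 CPM) and ceAF-1 (22.7 and 0.61 CPM) lie at the ends, and *C5ar1* of the other 8 mice lies between 2.45 and 5.57 CPM.

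Outside complement, the genes with the highest r to *C3* over the 10 mice were *Creb5* (r 0.94, rho 0.88), *Stab2* (r 0.94, rho 0.95) and *Tagap* (r 0.93, rho 0.93), given as a description because they were ranked by r. *Creb5* encodes a transcription factor, *Stab2* a scavenger receptor of endothelium, and *Tagap* a GTPase-activating protein of lymphocytes. All 3 were lowest in ceAF-1. *C3ar1* was nearest to *Asb3* (r 0.95, rho 0.87), *Dse* (r 0.93, rho 0.95) and *Csf1r* (r 0.93, rho 0.93), the receptor of the macrophage growth factor and itself in the macrophage list. *Cfd* was nearest to *Rgmb* (r 0.95, rho 0.90), *Tmem25* (r 0.92, rho 0.93) and *Btf3-ps18* (r 0.92, rho 0.90), each highest in ceAF-1 and lowest in ceAF-3 as *Cfd* was.

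Several of the genes are neighbours. In the positions of the expression table, whose genome build is not named, *C1ra* (chr6:124489364-124500402, plus strand) and *C1s1* (chr6:124507304-124519318, minus strand) lie next to each other with their 3' ends facing, on the chromosome that also carries *C3ar1* (chr6:122824097-122833120). *C4b* (chr17:34947354-34962856) and *Cfb* (chr17:35075350-35081494) lie close together on chromosome 17, as they do within the major histocompatibility complex, and *C3* (chr17:57510970-57535136) lies on the same chromosome. *Cd55* (chr1:130366764-130390481), *C5ar1* (chr7:15980668-15993465) and *Cfd* (chr10:79726687-79728489) are each on another. *Cfb* overlaps *Gm20547* on the same strand, and *C1s1* and *Cd55* overlap *Gm16567* and *Gm16083* on the opposite strand. Between 0 and 5 reads per mouse were assigned to *Gm16083* and 0 to *Gm20547* and *Gm16567*. Where they overlap, reads of *Cfb* and *Gm20547* cannot be told apart by strand. The use of strand in the counting is not given in the sources used here, so reads of *C1s1* and *Cd55* cannot be told apart from those of the genes opposite them either.

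Promoters of 7 of the 9 genes, 8 windows of 300 bases from 250 before to 50 after the transcription start, were found in RefSeq for GRCm38.p6, with 2 windows for *C1s1*. *C4b* and *Cfb* were not matched. Each window was searched on both strands for TTCNNNGAA, the motif of STAT factors (in 8.30% of 32851 promoters), TTGCNNAA, that of C/EBP factors (10.8%), GAAANNGAA, that of interferon regulatory factors (8.56%), and the kappa B motif (8.46%). The C/EBP motif was in 3 of the 7 genes (*C3*, *C1ra* and 1 of the 2 windows of *C1s1*), the STAT motif in 1 (*C1ra*), the interferon motif in 1 (*C5ar1*) and the kappa B motif in 0. The windows of *C3* and *C5ar1*, the pair that passed by rank, and of *C1s1* and *C1ra*, the pair with the highest r, are printed 5′ to 3′ with the matched letters in capitals. The *C3* window is chr17:57228087-57228386 on the minus strand, with TTGCGAAA starting 45 bases before the start. The *C5ar1* window is chr7:16259289-16259588 on the minus strand, with TTCCTTTTC, the interferon motif read on the opposite strand, starting 66 bases before it. The *C1ra* window is chr6:124512371-124512670 on the plus strand, with a C/EBP match on the opposite strand and a STAT match, both after the start. The *C1s1* window printed is chr6:124542310-124542609 on the minus strand, with a C/EBP match on the opposite strand, whereas the other, chr6:124542272-124542571, held no match. These coordinates are of GRCm38.p6, and a match is a description of the letters only.
C3 promoter: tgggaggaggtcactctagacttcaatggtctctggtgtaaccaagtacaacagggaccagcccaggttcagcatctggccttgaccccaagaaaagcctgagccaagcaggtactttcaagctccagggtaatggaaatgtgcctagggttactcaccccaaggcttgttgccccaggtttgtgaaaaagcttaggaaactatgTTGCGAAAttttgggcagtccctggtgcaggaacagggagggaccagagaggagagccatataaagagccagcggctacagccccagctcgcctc
C5ar1 promoter: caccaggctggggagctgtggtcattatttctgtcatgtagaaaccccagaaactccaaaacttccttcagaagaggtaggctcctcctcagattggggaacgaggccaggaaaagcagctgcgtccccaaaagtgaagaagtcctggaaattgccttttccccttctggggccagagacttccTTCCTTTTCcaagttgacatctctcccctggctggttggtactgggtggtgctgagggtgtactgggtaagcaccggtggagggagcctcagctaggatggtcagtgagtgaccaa
C1ra promoter: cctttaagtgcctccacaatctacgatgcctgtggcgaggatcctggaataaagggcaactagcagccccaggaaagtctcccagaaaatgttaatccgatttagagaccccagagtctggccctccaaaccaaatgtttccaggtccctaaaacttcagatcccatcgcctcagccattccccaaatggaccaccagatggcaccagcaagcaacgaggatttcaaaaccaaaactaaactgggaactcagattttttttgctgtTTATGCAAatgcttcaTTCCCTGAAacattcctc
C1s1 promoter: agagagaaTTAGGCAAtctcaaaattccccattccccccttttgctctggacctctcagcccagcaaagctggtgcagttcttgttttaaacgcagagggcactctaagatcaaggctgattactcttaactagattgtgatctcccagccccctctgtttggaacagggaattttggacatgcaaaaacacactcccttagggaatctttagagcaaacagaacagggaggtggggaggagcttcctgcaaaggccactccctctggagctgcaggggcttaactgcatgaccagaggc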

How the data were processed

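The authors deposited 1 table of mouse genes that gives, for each of the 10 mice, the raw count of reads per gene. Beside each count the authors deposited an FPKM value, and the FPKM equals the count scaled by exonic length and by the library's total (largest difference 0.005). The submitters' processing notes name cutadapt 1.9.1 and HISAT2 2.2.1, while the counting program and the genome build are not given in the sources used here. No symbol stands beside 2639 of the genes. RNA was selected by its poly(A) tail and primed at random. Gene starts in the table equalled those of GRCm38 for 0 of the 9 genes, so the positions given are those of the table, in an unnamed build.

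Counts were fitted in R 4.3.3 by edgeR 4.0.16, after filterByExpr with a minimum count of 10 and TMM scaling. Its two-sided quasi-likelihood test compared the groups, and p-values were adjusted by Benjamini-Hochberg over 16545 genes. The SE is the size of the log2 fold change divided by the root of the F statistic, and a 95% interval reaches 1.96 SE to either side. CPM use TMM-scaled totals, and log2 CPM adds a prior count of 1. Single genes also had an exact two-sided permutation test, and correlations a test with 100000 permutations. Promoters came from RefSeq (GRCm38.p6), and 50-base stretches from GENCODE M21 transcripts. Alternatives used DESeq2 1.42.0, limma 3.58.1 (voom with quality weights, and limma-trend on log2 FPKM), another normalization, filter or dispersion, the replicate number as a block, and the omission of mice. The edgeR, DESeq2 and voom fits were first tried on simulated counts in which 200 genes differed, and the other tests were not. Plots were made with matplotlib 3.10.9 under Python 3.11.15.

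Members and lists (5 of other complement genes, 1 of cytokine response genes, 12 of cell type markers) were chosen with earlier results of these data known. Genes named are the 9 members, their near copies, the C1q chains and other complement genes at an unadjusted p under 0.05. Also named are the most abundant gene of each list, and markers and cytokine response genes at 0 or not tested. The 3 genes nearest by r to *C3*, *Cfd* and *C3ar1*, and the overlapping *Gm20547*, *Gm16567* and *Gm16083*, are named as well. *Epcam*, *Cr1l*, *Hc* and the complement genes without a read fell outside that rule and were named after their values were seen. Labels number the samples and the study's methods speak of mice, and p-values measure only the spread between these samples. Reads that the authors' alignment or counting discarded, among them reads shared by near copies, are missing from every value.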

Additional observations from a re-analysis of the deposited data

Results flagged for a closer look

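In 11 of 58 groups of 5 values, 1 mouse lay apart from the other 4 by more than 0.71 of the group's range, which chance gives in about 1 of 20 groups, or 2.9 of 58. On log2 CPM of the complement genes, the gap as a share of the range was 0.76 for *C5ar1* in DSS-1 (highest), 0.827 for *C5ar1* in ceAF-1 (lowest), 0.734 for *C1s1* in ceAF-1 (lowest) and 0.731 for *Cd55* in DSS-1 (highest). On the mean centred log2 CPM of marker lists, it was 0.897 for fibroblast markers, 0.791 for B cell and plasma cell markers and 0.761 for endothelial markers, with DSS-1 highest in each of these. It was 0.823 for adipocyte markers, where ceAF-1 was highest, and 0.727 for T cell markers, where DSS-5 was lowest. Among properties of the libraries, it was 0.908 for the total count of DSS-2 (19901549, the highest) and 0.737 for the mitochondrial share of DSS-4 (6.54%, the highest of the DSS group). Of the 11 gaps, 5 were from DSS-1 and 3 from ceAF-1.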

How the results depend on the processing

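At an adjusted p under 0.05, 0 of the 9 genes passed under every alternative run. The count at an unadjusted p, 1 by edgeR, became 0 by DESeq2 (which gave no p for *C5ar1*), voom, limma-trend on FPKM with pseudocounts of 1 and 0.1, with the replicate block, and without DSS-1 and ceAF-1 together. Omitting 1 mouse at a time gave 0 (without DSS-1) to 2 (without DSS-4). *C3*, *C1s1*, *C3ar1* and *C5ar1* kept their direction in all 22 alternatives, *C4b* in 21, *C1ra* and *Cd55* in 19, *Cfb* in 18 and *Cfd* in 15. The first 4 shrank in size in some fits, by voom to −0.23 for *C3*, −0.29 for *C1s1*, −0.09 for *C3ar1* and −0.76 for *C5ar1*, and without DSS-1 and ceAF-1 together to −0.30, −0.12, −0.08 and −0.41. They grew in others, to −1.05 for *C3* without ceAF-5, −0.53 for *C1s1* without DSS-5, −0.65 for *C3ar1* without ceAF-3 and −2.39 for *C5ar1* without DSS-4. By voom the log2 fold change was 0.10 for *C4b*, −1.82 for *Cfd*, 0.016 for *C1ra* and 0.11 for *Cd55*. Limma-trend gave *Cfb* −0.0031 and −0.028, and *Cfd* −0.00025 and −0.26, with those pseudocounts. As differences of mean log2 CPM, *Cfb* was −0.0060 and *Cfd* −0.31. Without DSS-1 and ceAF-1, *Cfd* was −1.07, *C1ra* 0.14 and *Cd55* 0.22. Omitting 1 mouse, *C4b* ranged from −0.37 to −0.03, *Cfd* from −0.77 (without ceAF-1) to 0.82, *Cfb* from −0.0888 (without ceAF-3) to 0.41, *C1ra* from −0.31 to 0.066 (without ceAF-1) and *Cd55* from −0.24 to 0.11 (without DSS-1). In fits chosen after seeing the data, *C8g* was −0.0433 without DSS-4, B cell and plasma cell markers had a median of 0.26 without DSS-1, and *Cfp* was 0.15 without DSS-1 and ceAF-1. Of the relations between members, 3 passed by r after centring within groups, 0 by r before and 1 by rho. Over all genes, DESeq2 called 31 at an adjusted p and edgeR 0, or 3 without DSS-5. At an unadjusted p edgeR called 607 lower and 539 higher. In either direction 1568 passed by DESeq2, 2452 by voom, 1733 without a filter, 712 without DSS-1 and 1872 without ceAF-1. The cause of these changes was not tested. The labels do not say whether the replicate numbers pair the mice. Deviations of same-numbered mice correlated at −0.249, −0.136, −0.00428, −0.159 and 0.286, and only number 5 matched itself best, which cannot settle whether mice were paired. With the replicate number as a block, *Cfd* was −0.29 and *C5ar1* −1.11, while 0 of the neutrophil markers (median −1.93), 0 of the other complement genes and 694 of all genes passed an unadjusted p. Depth limits *Cfd* most, with 0 to 61 reads per mouse, and then *C5ar1* (8 to 667) and *C3ar1* (21 to 124).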
